A study of Mus musculus with 26 samples.

Results

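Genes that make, break down or bind retinoic acid were followed in sorted mesenchyme of the fetal mouse reproductive tract. They were Adh1, Rdh10, Aldh1a1, Aldh1a2, Aldh1a3, Cyp26a1, Cyp26b1, Crabp1 and Crabp2, 9 of the 41442 gene rows in each of 2 tables of RNA-seq counts. The genes were chosen by name for their place in retinoid metabolism, with earlier results of these data known, so the tests place each difference against the spread between libraries and are not independent evidence for the choice. The large rise of Adh1 with age in females was already known by name, and it is given as a description with no test.

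Mesenchymal cells were sorted from the mesonephros, the fetal tissue that carries the Wolffian and Müllerian ducts, and from the neonatal uterus. The 12 fetal RNA-seq libraries held Gli1+ cells of XX (female) and XY (male) embryos at E14.5 and E16.5, where E stands for embryonic day, with 3 libraries in each of the 4 groups. The 6 uterine libraries, all female and all at E19.5, held Amhr2+ or Gli1+ cells, with 3 in each of the 2 groups. The design asked how this mesenchyme differs between the sexes and ages, and between the marked populations of the uterus. The Gli1+ groups carried Gli1-CreER and the Cre-dependent reporter Rosa-Tomato, and the Amhr2+ group carried Amhr2-Cre with the same reporter. According to the labels, the dams of either genotype received tamoxifen by injection, 1 mg on E12.5 and again on E13.5, so that all groups share the drug. A Gli1-CreER label marks cells that used the Gli1 promoter around those injections and the descendants of such cells, whereas Amhr2-Cre needs no drug and marks cells that have used the Amhr2 promoter at any time. The labels do not say whether a library came from 1 embryo or a pool, or whether libraries came from separate litters, so p-values measure only the spread between these samples, which may be technical. ATAC-seq, which maps accessible chromatin, was represented by 1 list of peak positions for all 8 ATAC-seq samples of the fetal Gli1+ cells, without a sample or height for any peak.

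Retinoic acid is made from vitamin A in a pair of oxidation steps. Alcohol dehydrogenases such as ADH1 and short-chain dehydrogenases such as RDH10 turn retinol into retinal, and the aldehyde dehydrogenases ALDH1A1, ALDH1A2 and ALDH1A3 turn retinal into retinoic acid, which enters the nucleus and binds RAR and RXR receptors. CYP26A1 and CYP26B1 break retinoic acid down, and CRABP1 and CRABP2 bind it in the cytoplasm. The mesonephros is a known source of retinoic acid for the fetal gonad, where CYP26B1 shields male germ cells from it, and retinoic acid in the duct mesenchyme is known to favour a uterine over a vaginal fate.

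RefSeq sequence upstream of the start was at hand for 6 of the 9 genes (Adh1, Aldh1a1, Aldh1a2, Cyp26a1, Cyp26b1 and Crabp1). The 4 stretches below are the 250 bases before the RefSeq start in build GRCm38.p6 (the mm10 assembly), 5′ to 3′ on the strand of the gene, which was the plus strand for all 4. They are shown because the most highly expressed genes of the set differed in whether their start lay in open chromatin, and because Cyp26a1 holds the classical retinoic acid response motif. In the first 3, capitals mark bases under a deposited ATAC-seq peak: 250 of 250 bases upstream of Aldh1a2 (chr9:71215539-71215788), 129 of 250 upstream of Crabp1 (chr9:54764498-54764747) and 0 of 250 upstream of Adh1 (chr3:138277335-138277584). In the stretch of Cyp26a1 (chr19:37697558-37697807), where no peak lay, capitals mark the repeated motif TGAACT.
Aldh1a2: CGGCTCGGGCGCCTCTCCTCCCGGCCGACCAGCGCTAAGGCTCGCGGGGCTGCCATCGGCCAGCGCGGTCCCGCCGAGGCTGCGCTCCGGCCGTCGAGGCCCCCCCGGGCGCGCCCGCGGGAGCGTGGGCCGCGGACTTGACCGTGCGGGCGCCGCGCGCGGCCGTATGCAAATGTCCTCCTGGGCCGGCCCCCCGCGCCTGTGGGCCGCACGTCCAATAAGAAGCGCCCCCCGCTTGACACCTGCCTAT
Crabp1: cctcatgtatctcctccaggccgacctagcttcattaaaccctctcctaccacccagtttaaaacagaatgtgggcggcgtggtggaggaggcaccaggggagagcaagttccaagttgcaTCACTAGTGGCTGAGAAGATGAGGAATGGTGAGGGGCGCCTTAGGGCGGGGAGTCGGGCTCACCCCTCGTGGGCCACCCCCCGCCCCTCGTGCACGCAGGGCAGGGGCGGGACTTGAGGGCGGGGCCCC
Adh1: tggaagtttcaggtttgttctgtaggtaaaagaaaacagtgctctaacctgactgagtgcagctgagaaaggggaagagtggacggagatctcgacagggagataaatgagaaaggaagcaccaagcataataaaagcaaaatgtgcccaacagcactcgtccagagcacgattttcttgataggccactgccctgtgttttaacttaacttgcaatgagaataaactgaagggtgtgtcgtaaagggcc
Cyp26a1: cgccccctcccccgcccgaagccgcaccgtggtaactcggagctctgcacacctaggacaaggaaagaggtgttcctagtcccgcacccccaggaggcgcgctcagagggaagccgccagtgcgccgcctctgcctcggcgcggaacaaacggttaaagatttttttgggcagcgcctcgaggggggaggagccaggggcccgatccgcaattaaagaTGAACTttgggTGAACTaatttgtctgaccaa

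The Aldh1a2 stretch was the richest in G and C of the 6 genes, at 77.6% with 40 CpG pairs, against a median of 52.4% over 32851 mouse promoters. The Crabp1 stretch had 63.6% and 12 CpG pairs, Cyp26a1 61.6% and 20, Cyp26b1 64.8% and 7, and Adh1 44.8% and 5. The 2 stretches upstream of Aldh1a1, which has more than 1 RefSeq start, had 42.8% with 3 CpG pairs and 46.4% with 1. The receptor motif was searched as AGGTCA or AGTTCA on both strands, and as a repeat of either in the same direction with 2 (DR2) or 5 (DR5) letters between. A single motif occurred in 24.2% of the 32851 promoter stretches and in 1 of the 6 genes, Cyp26a1, too few genes to set against that share. Cyp26a1 held the DR5 repeat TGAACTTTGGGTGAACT, which is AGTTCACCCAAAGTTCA on the other strand and ends 15 bases before the start. A DR5 repeat was found in 11 of the 32851 promoters (0.0335%) and a DR2 repeat in 0.0365%, and such matches are matches of letters, not measured binding.

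The genes spanned a wide range of levels. To compare genes, CPM (counts scaled to library size) was taken per kilobase of exon, with the exons of all annotated transcripts of a gene joined. The order of genes can depend on that length. On this scale, Aldh1a2 had the highest level of the 9 in each of the 4 fetal groups, with means of 157 ± 7.99 in E14.5 females, 239 ± 16.4 in E14.5 males, 212 ± 8.08 in E16.5 females and 235 ± 17.1 in the E16.5 males (SD, n = 3). Crabp1 followed, at 67.8, 62.5, 162 and 45.0 CPM per kb in the same order of groups. Rdh10 lay between 9.54 and 17.8 and Crabp2 between 15.5 and 27.8, while the group means of Aldh1a1, Aldh1a3, Cyp26a1 and Cyp26b1 were under 1 CPM per kb in all 4 groups. Adh1 moved across that range, from 0.648 CPM per kb in E14.5 females to 27.1 in E16.5 females. In the uterus, whose table was scaled by itself, Adh1 had the highest level of the 9 in Gli1+ cells at 152 ± 25.9 CPM per kb, ahead of Crabp1 at 132 ± 17.9 and Aldh1a2 at 88.4 ± 6.86. Crabp1 led in Amhr2+ cells at 96.3 ± 1.28, ahead of Aldh1a2 at 68.0 ± 7.54, Rdh10 at 26.3 ± 6.12 and Adh1 at 16.2 ± 7.39. By CPM without length, Aldh1a2 was above Crabp1 in both populations. The means were 154 and 77.2 CPM in Amhr2+ cells and 200 and 106 in Gli1+ cells.

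**Figure D1:**
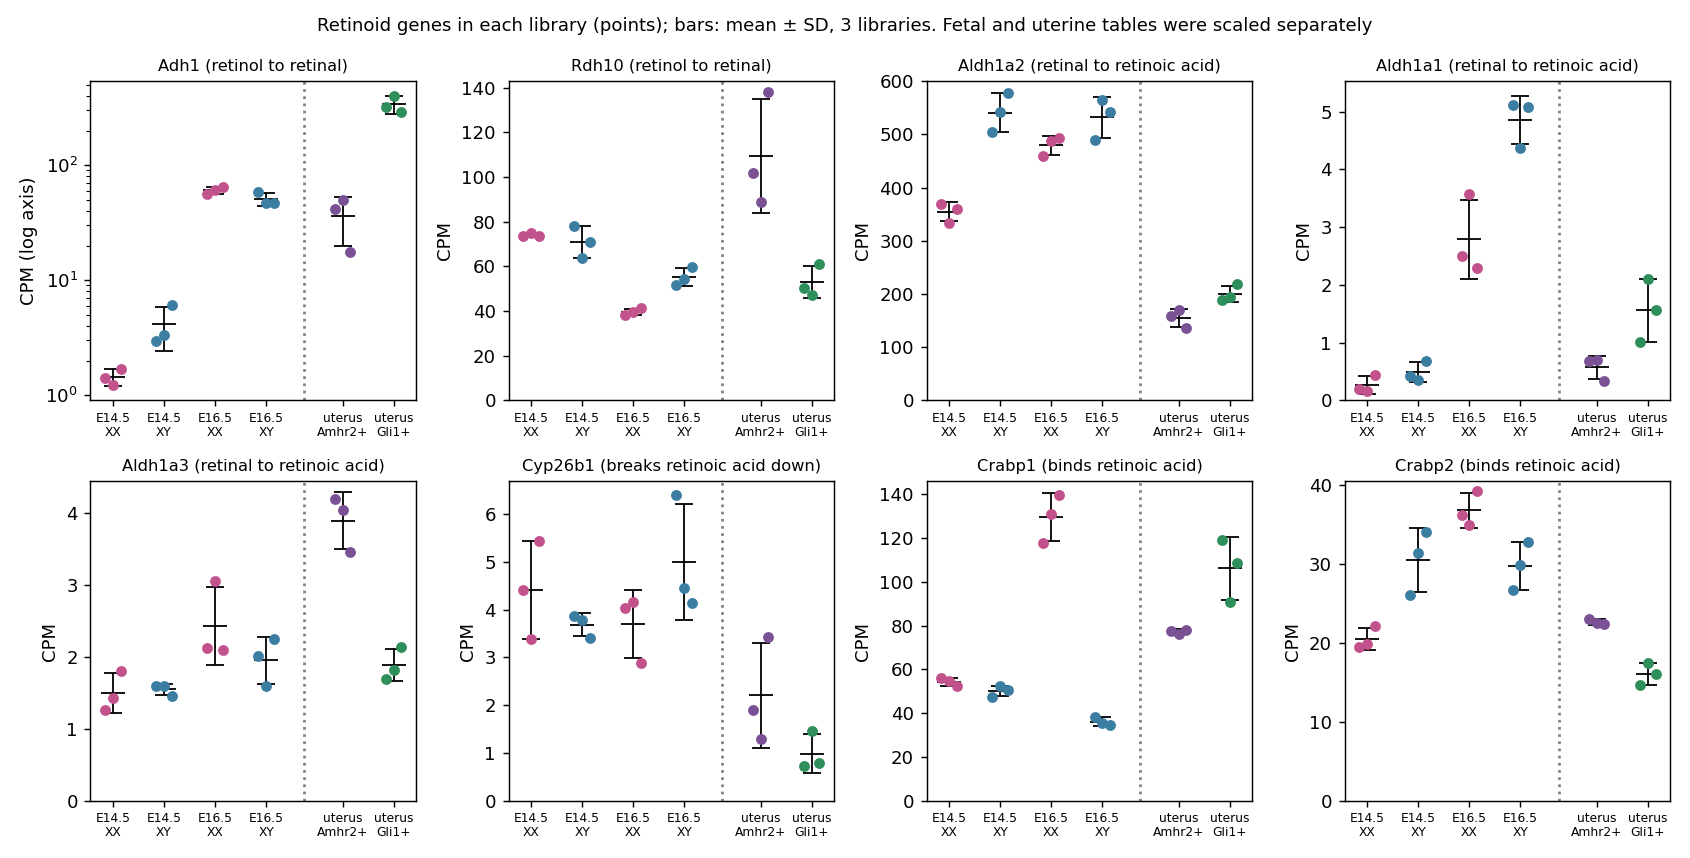
Each point is the level of a gene in 1 library in CPM (log axis for Adh1), with bars for the mean ± SD of 3 libraries, for the 8 genes that passed the filter on low counts. Adh1 lies between 1.23 and 6.08 CPM in all E14.5 libraries and between 46.9 and 64.7 in all E16.5 libraries, and the 3 E16.5 female libraries have the highest fetal Crabp1, from 118 to 140 CPM.

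Of Adh1 and Rdh10, which serve the first step, Adh1 changed more, and Rdh10 changed in the opposite direction with age. Adh1 (chr3:138277494-138290698, plus strand) stood at 1.40, 1.23 and 1.70 CPM in the 3 E14.5 female libraries and at 2.95, 3.36 and 6.08 in the E14.5 males. The E16.5 libraries held 56.5, 60.6 and 64.7 CPM in the females and 58.2, 46.9 and 47.0 in the males. Every E14.5 male library was above every E14.5 female library, every E16.5 library was above every E14.5 library, and the sexes overlapped at E16.5. At E14.5 Adh1 was 2.96-fold lower in females than in males (log2 fold change -1.56, SE 0.28, adjusted p = 0.00602 in edgeR's quasi-likelihood test with Benjamini-Hochberg adjustment over all 17858 genes). Male replicate 3 was the highest of its group, and without it the difference was -1.13 on the log2 scale. This comparison shares the E14.5 female libraries with the female rise known beforehand and is not independent of it. At E16.5 the log2 difference of 0.26 (SE 0.18, adjusted p = 0.325) was within the spread between libraries.

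With age, Adh1 was 41.7-fold higher at E16.5 than at E14.5 in females (log2 5.38), the 11th highest fold change of the 17858 genes, which is given as a description. In males it rose 11.8-fold (log2 3.56, SE 0.21, adjusted p = 1.85e-07), the 29th highest. In the fetal order of levels, from E14.5 females through E14.5 males and E16.5 males to E16.5 females, only the last neighbours did not pass the test of their difference. In bulk samples such as these, fewer cells of a type and less RNA per cell cannot be told apart. Adh1 overlaps the gene RP23-463H24.2 on the other strand, which had 0 to 64 reads in the fetal libraries and 1 to 4 in the uterine ones, and reads in the overlap cannot be assigned without strand.

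Rdh10 (chr1:16105774-16133734, plus strand) gave 73.5, 74.9 and 73.4 CPM in E14.5 females and 78.0, 63.8 and 71.1 in E14.5 males. The E16.5 libraries gave 38.4, 39.5 and 41.1 CPM in females and 51.5, 54.5 and 59.7 in males. The sexes overlapped at E14.5, where the log2 difference was 0.06 (adjusted p = 0.745), and they did not overlap at E16.5, where females were 1.39-fold lower (log2 -0.48, SE 0.08, adjusted p = 0.000228). Rdh10 fell with age in both sexes, the females by 0.90 (log2, adjusted p = 3.2e-07) and the males by 0.36 (adjusted p = 0.00271). Adh1 rose while Rdh10 fell, and their ratio within a library does not depend on scaling between libraries. Such ratios of reads are not corrected for exon length here, so they serve to compare groups and not the levels of the genes. There were 1.91, 1.65 and 2.32 Adh1 reads per 100 Rdh10 reads in E14.5 females and 3.78, 5.26 and 8.55 in E14.5 males, against 147, 153 and 157 in E16.5 females and 113, 86.2 and 78.6 in the E16.5 males. Unlike the level of Adh1 alone, the ratio did not overlap between the sexes at E16.5.

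**Figure D2:**
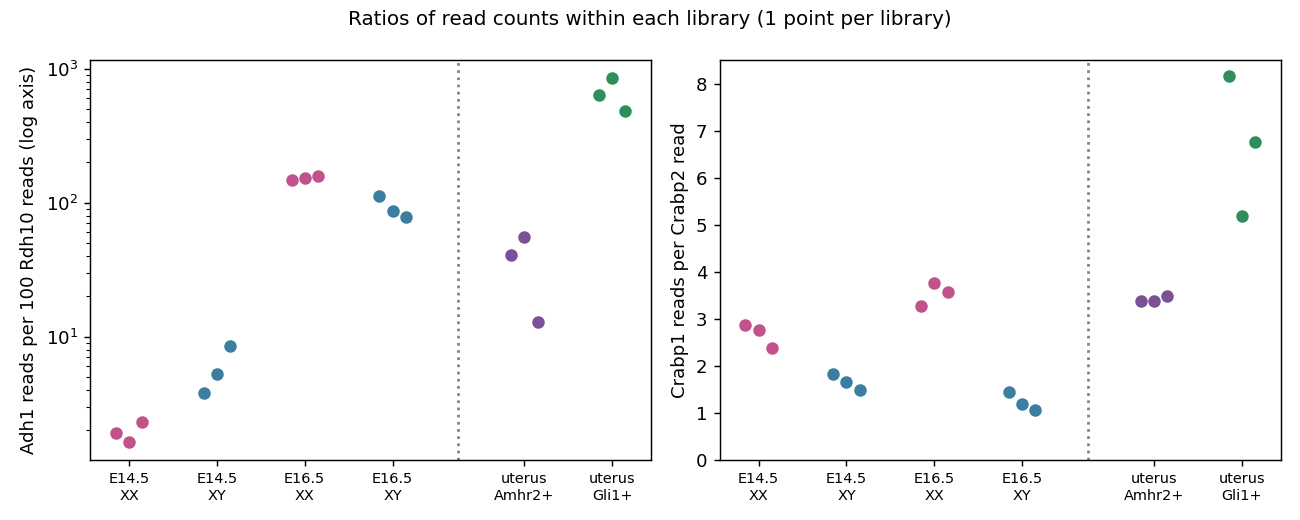
Each point is a ratio of read counts within 1 library, with Adh1 reads per 100 Rdh10 reads on the left (log axis) and Crabp1 reads per Crabp2 read on the right, for the 4 fetal and 2 uterine groups of 3 libraries. Adh1 reads per 100 Rdh10 reads lie between 1.65 and 8.55 at E14.5 and between 78.6 and 157 at E16.5, and Crabp1 reads per Crabp2 read lie from 2.38 to 3.75 in all fetal female libraries and from 1.05 to 1.83 in all fetal male libraries.

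Among the enzymes of the second step, Aldh1a2 supplied nearly all of the transcript. Aldh1a2, the main retinoic acid synthase of embryonic mesenchyme (chr9:71215789-71296243, plus strand), made up 99.8%, 99.8%, 99.5% and 99.4% of the summed CPM per kb of the 3 Aldh1a genes in E14.5 females, E14.5 males, E16.5 females and E16.5 males. It stood at 369, 334 and 360 CPM in E14.5 females, at 504, 541 and 578 in E14.5 males, at 459, 487 and 493 in E16.5 females and at 489, 565 and 542 in the E16.5 males. The E14.5 females were below every other fetal library, and the remaining groups lay close together. Females were 1.53-fold lower than males at E14.5 (log2 -0.61, SE 0.07, adjusted p = 8.08e-05). They rose between the ages by 0.44 on the log2 scale (SE 0.07, adjusted p = 0.000219), whereas the males differed by -0.02 (adjusted p = 0.843). At E16.5 the sexes differed by -0.15 (adjusted p = 0.141), a difference that passed the threshold only when E16.5 male replicate 1, the lowest male, was left out (-0.21, adjusted p = 0.0375).

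Aldh1a1 (chr19:20601961-20643462, plus strand) was rare at E14.5, with 22 reads in all 3 female libraries together and 63 in the 3 males. It gave 0.200, 0.159 and 0.434 CPM in E14.5 females, 0.421, 0.352 and 0.685 in E14.5 males, 2.498, 3.57 and 2.30 in E16.5 females and 5.11, 4.38 and 5.09 in the E16.5 males. All E16.5 libraries were above all E14.5 libraries, and the sexes were separate at E16.5 but not at E14.5. Aldh1a1 rose 10.4-fold with age in females (log2 3.38, SE 0.33, adjusted p = 1.28e-06) and 9.57-fold in males (log2 3.26, SE 0.27, adjusted p = 3.54e-07), the 61st and 41st highest fold changes of all genes. It was 1.74-fold lower in females at E16.5 (log2 -0.80, adjusted p = 0.0148), a call that was lost without E16.5 female replicate 1 (adjusted p = 0.0605) or replicate 3 (0.0595). Reads of Aldh1a1 can be shared with its close relative Aldh1a7, which had group means of 0.0776 to 0.611 CPM in the fetal table, so its level is uncertain to that extent.

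Aldh1a3 (chr7:66390890-66427517, minus strand) stayed low, with lowest and highest values of 1.27 and 1.81 CPM in E14.5 females, 1.46 and 1.60 in E14.5 males, 2.097 and 3.05 in E16.5 females and 1.60 and 2.25 in the E16.5 males. Of the 4 fetal comparisons, that of the ages in females passed the test, with a rise of 0.69 on the log2 scale (SE 0.21, adjusted p = 0.0178). That call was lost without E14.5 female replicate 1 (adjusted p = 0.0885), E14.5 female replicate 2 (0.0601) or E16.5 female replicate 2 (0.102).

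The enzymes of breakdown were scarce. Cyp26b1 (chr6:84571414-84593908, minus strand) gave 4.41, 3.38 and 5.43 CPM in E14.5 females, 3.87, 3.78 and 3.41 in E14.5 males, 4.04, 4.16 and 2.88 in E16.5 females and 6.39, 4.46 and 4.14 in the E16.5 males. The groups lay within the same few CPM, and none of the fetal comparisons passed the threshold: the log2 differences were 0.27 between the sexes at E14.5 (adjusted p = 0.546), -0.43 at E16.5 (0.127), -0.26 between the ages in females (0.344) and 0.44 in males (0.131). There were 82.9 ± 16.2 Aldh1a2 reads for each Cyp26b1 read in E14.5 females, 148 ± 20.1 in E14.5 males, 134 ± 32.2 in E16.5 females and 111 ± 30.3 in the E16.5 males (SD, n = 3). These ratios are not corrected for exon length, 2264 bp for Aldh1a2 and 5352 bp for Cyp26b1, and so understate Aldh1a2 against Cyp26b1. Cyp26a1 (chr19:37697808-37701528, plus strand), the gene with the DR5 repeat shown above, was at the edge of detection and did not pass the filter on low counts in either table. Its raw counts were 0, 0 and 1 in E14.5 females, 0, 5 and 0 in E14.5 males, 3, 0 and 2 in E16.5 females and 8, 8 and 6 in the E16.5 males, where 3 counts were taken as the floor of detection. The E16.5 males were the only fetal group with all 3 libraries above that floor, and no test was made.

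Transcripts of the binding proteins separated the sexes at E16.5. Crabp1 (chr9:54764748-54773110, plus strand) gave 55.9, 54.7 and 52.4 CPM in E14.5 females, 47.5, 52.3 and 50.5 in E14.5 males, 118, 131 and 140 in E16.5 females and 38.3, 35.7 and 34.4 in the E16.5 males. At E14.5 the sexes lay next to each other, and at E16.5 the females were far above and the males below every E14.5 library. The sex difference was 0.12 on the log2 scale at E14.5 (SE 0.07, adjusted p = 0.436). At E16.5 Crabp1 was 3.59-fold higher in females (log2 1.84, SE 0.07, adjusted p = 1.06e-10), the 183rd highest of 17858 genes. It rose 2.38-fold with age in females (log2 1.25, adjusted p = 4.24e-09) and fell by 0.47 on the log2 scale in males (adjusted p = 0.000162).

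Crabp2 (chr3:87948666-87953376, plus strand), which carries retinoic acid to the nuclear receptors, gave 19.51, 19.8 and 22.0 CPM in E14.5 females, 26.0, 31.4 and 34.0 in E14.5 males, 36.1, 34.9 and 39.2 in E16.5 females and 26.6, 29.8 and 32.8 in the E16.5 males. The females moved from below the males to above them. Crabp2 was 1.49-fold lower in females at E14.5 (log2 -0.58, SE 0.10, adjusted p = 0.00282) and 1.23-fold higher at E16.5 (log2 0.30, SE 0.10, adjusted p = 0.0321). The E16.5 call was lost without any 1 of the 3 female libraries (adjusted p = 0.0701, 0.0546 and 0.108 without replicates 1, 2 and 3) and without male replicate 1 (0.0958) or 2 (0.0725). Crabp2 rose with age in females by 0.84 on the log2 scale (SE 0.10, adjusted p = 1.14e-05), and the males differed by -0.04 (adjusted p = 0.813). Within a library, there were 3.27, 3.75 and 3.56 Crabp1 reads per Crabp2 read in E16.5 females against 1.44, 1.197 and 1.05 in E16.5 males. The ratio was 2.86, 2.76 and 2.38 in E14.5 females and 1.83, 1.67 and 1.49 in E14.5 males, so that the sexes were separate at both ages.

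The effect of sex differed between the ages, tested as an interaction, for 4 of the 7 genes that passed the filter other than Adh1, against 10% of all genes tested (4.66% above 0 and 5.36% below). Taken with its sign, the female minus male difference was higher at E16.5 than at E14.5 for Crabp1 (log2 1.73, adjusted p = 5.37e-08), Crabp2 (0.88, 0.00072) and Aldh1a2 (0.46, 0.00737), and it was lower for Rdh10 (-0.54, 0.00398). In size, the sex difference shrank for Aldh1a2 (-0.61 to -0.15) and, with a change of sign, for Crabp2 (-0.58 to 0.30). It grew for Rdh10 (0.06 to -0.48) and Crabp1 (0.12 to 1.84). For Adh1 the value was 1.82, which contains the female rise known beforehand and is given as a description with no test. The interactions of Aldh1a1 (0.12, adjusted p = 0.913), Aldh1a3 (0.34, 0.534) and Cyp26b1 (-0.70, 0.154) did not pass.

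Counted by comparison, the sexes differed at E14.5 for 3 of the 8 tested genes, all lower in females, against 6.28% of all genes (2.59% higher and 3.69% lower), and the median log2 difference of the 8 was -0.31 against -0.01 over all genes. At E16.5 they differed for 4 genes, 2 higher and 2 lower in females, against 27.3% of all genes (13.2% higher and 14.1% lower), with a median of 0.05 against 0.01. That count was 2 without E16.5 female replicate 1 or without replicate 3. Calls over all genes at E16.5 ranged from 3618 to 5745 with 1 library left out, against 4883. Between the ages in females, Adh1 was left out of the count, and 6 of the other 7 genes passed, 5 of them higher at E16.5, against 39.6% of all genes (21% higher and 18.6% lower), with a median of 0.69 against 0.00. In males 4 passed, 2 in each direction, against 23.3% (13.1% higher and 10.2% lower), with a median of 0.16 against -0.01. The fetal comparisons share libraries with one another and are not independent.

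**Figure D3:**
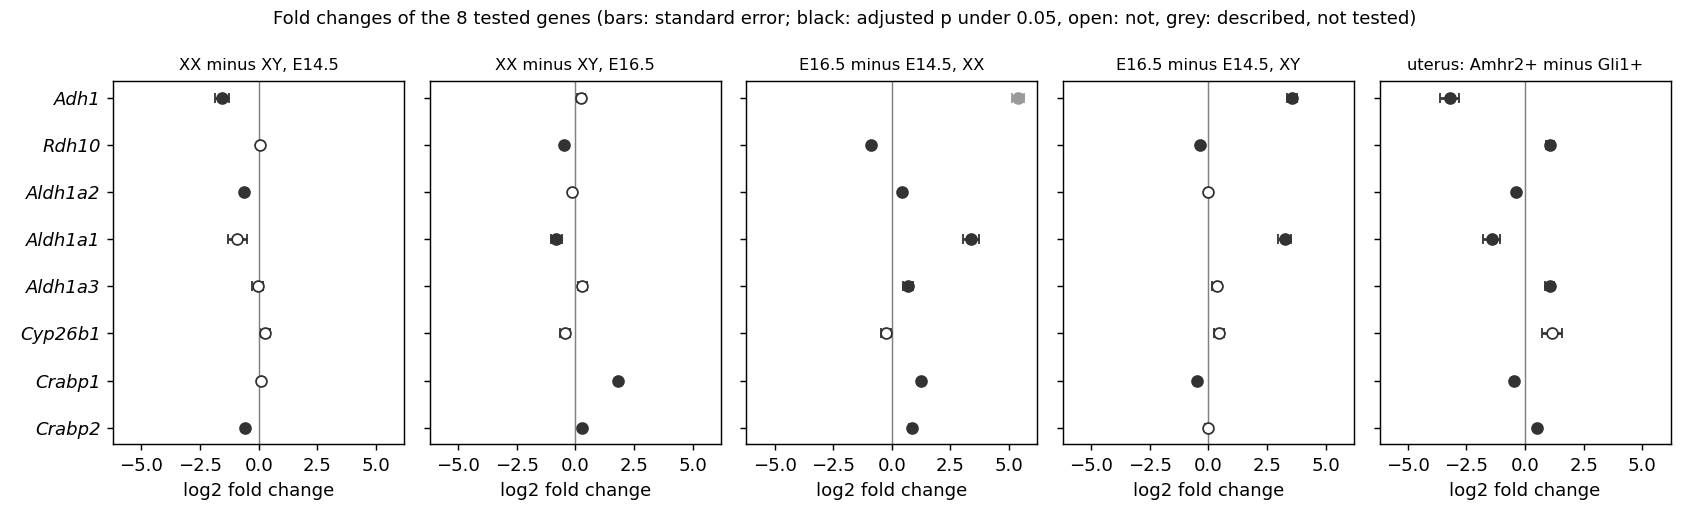
Log2 fold changes of the 8 tested genes in 4 fetal comparisons and the uterine comparison, with standard errors as bars; filled points had an adjusted p under 0.05, open points did not, and the grey point is a description without a test. Adh1 (5.38 in females, 3.56 in males) and Aldh1a1 (3.38 and 3.26) lie far to the right in both age panels, and Adh1 lies at -3.22 in the uterus.

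In the neonatal uterus, Gli1+ cells held more Adh1 and Amhr2+ cells more Rdh10. Adh1 gave 41.2, 49.6 and 17.8 CPM in the Amhr2+ libraries and 319, 403 and 293 in the Gli1+ libraries. The groups lay far apart, and Amhr2+ replicate 3 was the lowest library. Adh1 was 9.32-fold lower in Amhr2+ cells (log2 -3.22, SE 0.41, adjusted p = 0.00511 over 16195 genes), the 69th lowest fold change of the table. Rdh10 went the other way, with 102, 88.9 and 138 CPM in Amhr2+ cells and 50.4, 47.2 and 61.1 in Gli1+ cells. It was 2.07-fold higher in Amhr2+ cells (log2 1.05, SE 0.17, adjusted p = 0.00528). Adh1 reads per 100 Rdh10 reads were 40.5, 55.7 and 12.9 in Amhr2+ libraries and 632, 855 and 479 in Gli1+ libraries.

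The uterine retinal dehydrogenases were split as well. Aldh1a2 gave 158, 169 and 135 CPM in Amhr2+ cells and 189, 193 and 218 in Gli1+ cells, without overlap, and was 1.30-fold lower in Amhr2+ cells (log2 -0.38, SE 0.09, adjusted p = 0.0201). It no longer passed without Amhr2+ replicate 1 (adjusted p = 0.0629) or Gli1+ replicate 3 (0.0575). Aldh1a1 gave 0.674, 0.701 and 0.339 CPM against 1.01, 2.11 and 1.57, also lower in Amhr2+ cells (log2 -1.42, adjusted p = 0.0247), a call lost without Amhr2+ replicate 1 (0.0633) or 3 (0.0601) or Gli1+ replicate 2 (0.0642) or 3 (0.0504). Aldh1a3 gave 4.20, 4.05 and 3.46 CPM against 1.70, 1.83 and 2.14, and was 2.07-fold higher in Amhr2+ cells (log2 1.05, SE 0.18, adjusted p = 0.00425). By CPM per kb Aldh1a2 still made up 98.6% of the 3 Aldh1a genes in Amhr2+ cells and 99.2% in Gli1+ cells.

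Crabp1 and Crabp2 also moved in opposite directions between the uterine populations. Crabp1 gave 77.7, 76.1 and 78.0 CPM in Amhr2+ cells and 119, 90.7 and 109 in Gli1+ cells, and was lower in Amhr2+ cells (log2 -0.46, SE 0.09, adjusted p = 0.00999). Crabp2 gave 23.0, 22.5 and 22.3 CPM against 14.6, 17.5 and 16.1, and was higher in Amhr2+ cells (log2 0.50, SE 0.09, adjusted p = 0.00604). Neither gene overlapped between the populations, and Crabp1 reads per Crabp2 read were 3.38, 3.38 and 3.49 in Amhr2+ libraries against 8.16, 5.20 and 6.76 in Gli1+ libraries. Cyp26b1 gave 1.89, 1.29 and 3.42 CPM in Amhr2+ cells and 0.715, 1.45 and 0.784 in Gli1+ cells. The groups overlapped, and the log2 difference of 1.15 (SE 0.42, adjusted p = 0.0799) did not pass in edgeR, although it did in DESeq2's Wald test (1.17, adjusted p = 0.0359) and without Amhr2+ replicate 2 (1.43, adjusted p = 0.0394). Cyp26a1 had 1, 1 and 7 counts in Amhr2+ libraries and 2, 0 and 3 in Gli1+ libraries. In all, 7 of the 8 tested genes differed between the populations, 3 higher and 4 lower in Amhr2+ cells, against 23.9% of all genes (10.1% higher and 13.7% lower), with a median log2 difference of 0.06 against -0.00 over all genes.

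Markers of other cell types moved with some of these differences. Mesenchymal markers (8 of 8 detected, among them Pdgfra and Col1a1) summed to 35569 to 67254 CPM in the fetal libraries, most of it from the collagen genes Col1a1, Col1a2 and Col3a1. The sum was 23.1 to 53.2 for 8 epithelial markers such as Epcam and Krt18, and 64.3 to 123 for 5 endothelial markers. It was 11.6 to 67.8 for 4 immune markers and 29.9 to 60.2 for 4 markers of Sertoli and supporting cells. For 7 erythroid markers it was 5.79 to 964. The mesenchymal sum was above each of these, but sums over different genes do not measure the share of a cell type. At E14.5, where Adh1, Aldh1a2 and Crabp2 were lower in females, the 5 mesothelial markers summed to 39.0 to 49.4 CPM in females and 58.1 to 65.2 in males, the 8 epithelial markers to 30.5 to 34.9 and 45.1 to 53.2, and the 4 smooth muscle markers to 169 to 188 and 470 to 737. The male excess of the epithelial sum lay mainly in Krt18 (means of 15.6 CPM in females and 24.7 in males) and Krt19 (7.17 and 12.7). Krt8 and Pax8 were also higher in males. Epcam (3.03 and 2.76), Pax2 (0.433 and 0.323) and Cldn6 (0.772 and 0.491) were lower in males, and Cdh1 was at 0.603 in both. Krt19 stands in both the epithelial and the mesothelial list. At E16.5, where Crabp1 was higher in females and Rdh10 and Aldh1a1 lower, smooth muscle markers summed to 258 to 362 CPM in females and 1505 to 2690 in males, and Gli1 itself stood at 48.5 to 54.0 in females and 194 to 220 in males. The epithelial sum at E16.5 was 23.1 to 32.4 CPM in females and 32.5 to 40.6 in males. Its genes Pax2, Pax8 and Cldn6 were lower in males. The mesothelial sum at E16.5 overlapped, with 23.6 to 52.7 CPM in females and 50.4 to 70.1 in males. With age, where Adh1 and Aldh1a1 rose and Rdh10 fell, the mesenchymal sum went from 40976 to 43024 CPM at E14.5 to 57826 to 67254 at E16.5 in females and from 35569 to 41168 to 48201 to 59883 in males. Not all of its genes rose. Pdgfrb went from a mean of 562 to 495 CPM in females and from 444 to 319 in males. Pdgfra went from 989 to 646 in females and from 1024.5 to 1174.6 in males, and the other genes of the sum rose in both sexes. Smooth muscle markers were higher at E16.5 in both sexes by the ranges above. Over the same step Gli1 went from a mean of 184 to 50.7 CPM in females and from 228 to 208 in males, its target Ptch1 from 616 to 76.6 and from 855 to 671, and the heat shock gene Hspa1a, which can share reads with its copy Hspa1b, from 3.76 to 151 (19.2 to 293 over the E16.5 female libraries) and from 8.65 to 14.1. In the uterus the mesenchymal sum was 27089 to 28934 CPM in Amhr2+ and 56182 to 63405 in Gli1+ libraries, the epithelial sum 71.6 to 73.7 and 31.2 to 43.3, and the smooth muscle sum 677 to 1192 and 1571 to 1632. Collagen genes made up most of the uterine mesenchymal sum as well, and Dcn, Vim and Tcf21 were also higher in Gli1+ cells. Pdgfra (means of 579 CPM in Amhr2+ and 564 in Gli1+ cells) and Pdgfrb (505 and 500) differed little. The endothelial sum was 112 to 123 CPM in E14.5 females, 101 to 115 in E14.5 males, 64.3 to 77.5 in E16.5 females and 81.8 to 91.5 in E16.5 males. It was 23.8 to 29.6 in Amhr2+ and 36.7 to 44.9 in Gli1+ uterine libraries. At E16.5 its gene Kdr was lower in females (means of 30.1 and 47.8 CPM) and its gene Emcn higher (37.1 and 27.8). None of the mesothelial, epithelial, endothelial or smooth muscle markers was at 0 in a group, and the part of any of these genes in the differences of the retinoid genes was not tested. Amhr2 stood at 7.25 to 15.8 CPM in Amhr2+ and 3.35 to 5.23 in Gli1+ uterine libraries. Genes of the response to cell dissociation varied most between libraries of 1 group in E16.5 males (3600 to 17597 CPM summed over 8 genes) and uterine Gli1+ cells (1185 to 11467), and each of these libraries was left out in turn. E14.5 female replicate 3 held 964 CPM of erythroid markers, and without it the 3 retinoid genes that differed between the sexes at E14.5 still did.

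The fetal libraries held 23382983 to 64602477 counts each and the uterine ones 28709191 to 37541045, which puts the floor of 3 counts at 0.0485 to 0.126 and 0.0778 to 0.102 CPM. This floor covers counting error only, and the genes differ in the reads behind them: Aldh1a2 had 29386 reads or more in each fetal group, Crabp1 4495 or more, Adh1 120 to 7329 and Aldh1a1 22 to 690.

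Other genes of the pathway were described from 3 lists, some of whose genes stand in more than 1 list. Among 33 further genes of retinoid handling, 21 could be tested in fetal cells. At E14.5, 1 of them differed between the sexes, the retinol transporter gene Stra6 (lower in females, log2 -0.40, adjusted p = 0.000982), against 6.28% of all genes, and the median of the list was 0.01 against -0.01 over all genes. At E16.5, 2 were higher and 5 lower in females, 7 of 21 against 27.3% of all genes (list median 0.04). Leaving aside genes whose higher group had a mean under 5 CPM, the greatest differences were in Cyp1b1, a cytochrome P450 that can oxidise retinol (-1.33), Rbp4, the blood carrier of retinol (-1.09), Retsat, a retinol saturase (0.53), and Fabp5, a fatty acid carrier that can bind retinoic acid (-0.39). Between the ages, 7 rose and 4 fell in females and 8 rose and 4 fell in males, 11 and 12 of 21 against 39.6% and 23.3% of all genes (list medians 0.22 and 0.15). Cyp2s1 fell by 2.236 (log2) with age in females and fell by 1.53 in males, and Dhrs3, which turns retinal back to retinol, rose by 0.98 in females (adjusted p = 0.000138). In the uterus, 3 of 20 were higher and 6 lower in Amhr2+ cells, against 23.9% of all genes (list median 0.05), with Cyp1b1 at -2.44, Rbp4 at -1.59, Stra6 at 0.69 and the alcohol dehydrogenase gene Adh5 at -0.60. A pair of rarer genes, under that level of 5 CPM, were singled out after their values were seen. The alcohol dehydrogenase gene Adh7 was higher at E16.5 than at E14.5, with group means of 0.0334 and 1.65 CPM in females (adjusted p = 1.35e-06) and 0.078 and 1.19 in males (adjusted p = 8.6e-06), its E14.5 level being near the floor of detection. Stra6l, a relative of Stra6, had a mean of 3.24 CPM in the E16.5 males and of 0.575 in their female counterparts (log2 -2.485 for female minus male, adjusted p = 4e-05), a greater difference than that of Cyp1b1.

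Of the 6 receptor genes 5 could be tested, and at E14.5 their sex differences lay between -0.06 and 0.16 on the log2 scale, with adjusted p from 0.236 to 0.94. At E16.5, 3 were higher in females (Rarb 0.68, Rarg 0.49 and Rxrb 0.33 on the log2 scale, adjusted p = 4.11e-05, 0.000115 and 0.00212), against 13.2% of all genes higher, with a list median of 0.33. With age, 2 rose and 1 fell in females, against 39.6% of all genes, and 1 fell in males, against 23.3%. In females Rarg rose by 0.72 (adjusted p = 2.05e-06), Rxrb rose by 0.19 (0.0351) and Rxra fell by 0.24 (0.0118). In males Rarb fell by 0.56 (adjusted p = 0.000315). In the uterus Rarb (-0.57, adjusted p = 0.0088), Rxra (-0.56, 0.00165) and Rara (-0.25, 0.0162) were lower in Amhr2+ cells, 3 of 5 against 13.7% of all genes lower. Of 14 genes known to respond to retinoic acid, 11 could be tested in fetal cells. At E14.5, 2 were lower in females, against 3.69% of all genes, Stra6 and the transglutaminase gene Tgm2 (-0.34, adjusted p = 0.0175). At E16.5, 2 were higher and 1 lower, 3 of 11 against 27.3% of all genes, with Tgm2 at -1.17 and the homeobox gene Meis1 at 0.39. With age, 4 rose and 3 fell in females and 3 rose and 3 fell in males, against 39.6% and 23.3% of all genes (list medians 0.10 and -0.11), so the list did not move one way. In the uterus 1 of 10 was higher and 2 were lower in Amhr2+ cells, against 23.9% of all genes, with a list median of 0.03.

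The deposited list of 71040 ATAC-seq peaks, with a median width of 233 bp, held 28 peaks within 10 kb of 8 of the 9 genes. A peak lay within 1 kb of an annotated transcript start for 6 of the 9 genes and covered a start for 4 of them, Rdh10, Aldh1a2, Aldh1a3 and Crabp1. The peak over the start of Rdh10 was 2057 bp wide (chr1:16104184-16106240) and that of Aldh1a2 911 bp (chr9:71215263-71216173), with 2 more peaks of 786 and 244 bp in the introns of Aldh1a2. Crabp1 had a peak of 377 bp over its start (chr9:54764619-54764995) and another of 608 bp in an intron (chr9:54770258-54770865). The start peak of Aldh1a3 was 309 bp wide. Aldh1a1 and Crabp2 had their nearest peaks 11 and 328 bp from a start that is not the one the count tables give. Cyp26a1 and Cyp26b1 had peaks near the gene but none within 1 kb of a start, and Adh1 had none within 10 kb of the gene as the count tables place it, the nearest lying 12218 bp away. The list pools all samples, so no peak can be assigned to a sex or an age. None of the 28 peaks held a DR2 or DR5 repeat, which occurred in 0.0423% and 0.0704% of 70999 peaks.

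**Figure D4:**
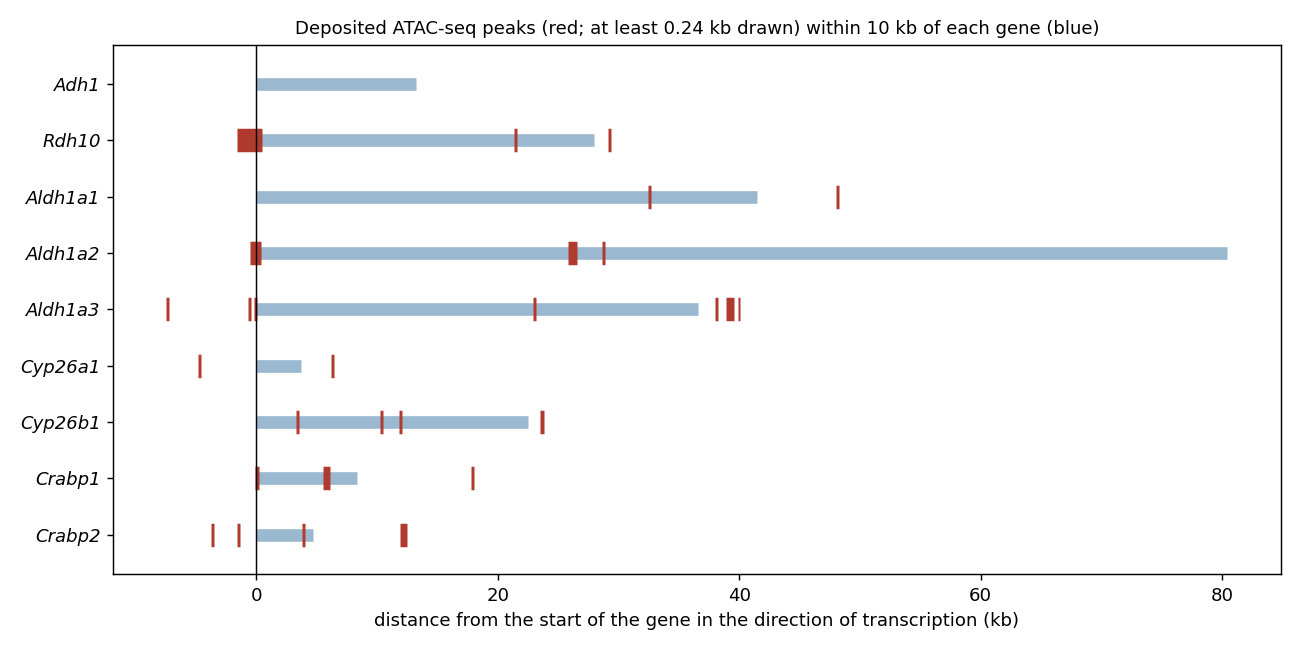
Deposited ATAC-seq peaks (red) within 10 kb of each gene (blue bar, the extent given in the count tables), plotted by distance in kb from the start of the gene in the direction of transcription. Rdh10, Aldh1a2, Aldh1a3 and Crabp1 have a peak over the start, and Adh1 has no peak in the window.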

How the data were processed

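RNA-seq counts per gene were deposited by the authors in 2 tables, 1 for the 12 fetal libraries and 1 for the 6 uterine libraries, on mm10 coordinates per the file headers. Per the labels' protocols, a TruSeq non-stranded kit was used for the fetal libraries and a TruSeq Stranded mRNA kit for the uterine ones, so the tables were never fitted together. The submitters' processing notes name STAR 2.5, featureCounts of Subread 1.5.0-p1, Bowtie 1.2, SAMtools 1.3.1, Picard, bedtools 2.24.0 and MACS2 2.1.1, without their roles. The annotation version, the use of strand in counting and the peak threshold are not given in the sources used here. The ATAC-seq peaks were deposited as positions only.

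Differences in counts were tested in edgeR 4.0.16 under R 4.3.3 by quasi-likelihood (filterByExpr, TMM, Benjamini-Hochberg threshold 0.05), with 1 model of 4 group means for the fetal table and 1 for the uterine table. CPM used TMM-scaled totals, and the SE was the log2 fold change divided by the root of F. Alternatives were DESeq2 1.42.0 and its size factors, library size only, no low-count filter, only the 6 libraries of a comparison, a replicate block, and each library left out. Peaks were set against GENCODE vM21 starts on GRCm38. The 9 genes, the pathway lists and the marker lists were chosen with earlier results of these data known. From each pathway list at most 4 genes per comparison were named, those with the largest changes past the threshold and at least 5 CPM in the higher group. Genes of like pattern were the 3 with the highest correlation of log2 CPM (prior count 2) among genes of at least 10 CPM in the highest group.

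Same-numbered E16.5 female and male libraries deviated together from their group means (r = 0.28, 0.11 and 0.4, all over 0.1), a pairing seen in the data and not in the labels. In the other comparisons not every r was over 0.1. The tests given above used no pairs, and the replicate block was an alternative run for every comparison. Libraries of 1 group differed by 3.40 to 82.9 in chi-square per degree of freedom, so none was a copy of another. The fetal fit was tested on simulated data.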

Additional observations from a re-analysis of the deposited data

Results flagged for a closer look

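The effect of sex differed between E14.5 and E16.5, by the interaction test of edgeR over all 17858 genes, for 4 of the 7 tested retinoid genes other than Adh1. Over all genes the share was 10% (4.66% above 0 and 5.36% below). The values are the female minus male log2 difference at E16.5 less that at E14.5. Adh1 had 1.82, which contains the female rise known beforehand and is a description, and its sex difference went from -1.56 to 0.26. Crabp1 had 1.73, from 0.12 to 1.84. Crabp2 had 0.884, from -0.58 to 0.30, with every female library below every male library at E14.5 and above it at E16.5. Aldh1a2 had 0.461, from -0.61 to -0.15. Rdh10 had -0.538, from 0.06 to -0.48.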

How the results depend on the processing

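Of 608 recomputed fold changes of the 8 tested genes, 578 kept their direction and their side of the threshold, 16 lost a call, 3 gained one and 11 changed sign, all 11 in values that were not called. The 608 include the female age difference and the interaction of Adh1, which are descriptions here. The lost and gained calls are named beside the results above. Without any 1 library, the number of genes called ranged from 2 to 4 for the sexes at E16.5 (2 without E16.5 female replicate 1 or 3) and from 5 to 8 in the uterus. Calls over all genes moved as well, from 3618 to 5745 for the sexes at E16.5 against 4883, and in the uterus as given below. The sign changed for the sexes at E14.5 in Aldh1a3 (-0.20 to 0.072) and Rdh10 (-0.0112 to 0.131), for the interaction of Aldh1a1 (-0.30 to 0.66), and for the ages in males in Aldh1a2 (-0.0744 to 0.032, and 0.0011 with no low-count filter) and Crabp2 (-0.14 to 0.0469). Library size only moved the median of all uterine genes by 0.08 on the log2 scale, and no scaling changed the direction of a called gene. The replicate block changed no call of a tested gene in any comparison. The female age difference and the interaction of Adh1 are descriptions and are not counted among these calls. Without length, Aldh1a2 made up 99.503%, 99.624%, 98.925%, 98.727%, 97.179% and 98.307% of the Aldh1a genes by CPM in E14.5 females, E14.5 males, E16.5 females, E16.5 males, Amhr2+ and Gli1+ uterine cells; genes with longer exons weigh more on that scale. Over all genes, calls between the sexes at E14.5 ranged from 553 to 1678 with 1 library left out, against 1121 (lower by over 1.5 times without any E14.5 library but male replicate 1), those of the interaction from 1335 to 2687 against 1790 (highest without E16.5 male replicate 1), and those in the uterus from 1949 to 3521 against 3866 (1949 without Amhr2+ replicate 1 and 2521 without Gli1+ replicate 1). The number of genes with a peak within 1 kb of a start was 6, against 9 within 10 kb, 4 with a peak over a start and 4 with wide peaks only. The cause of these changes was not tested.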

Other observations

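The genes whose pattern over the 12 fetal libraries was most like that of Adh1, among 10456 genes, were Syt13, a synaptotagmin gene (r = 0.992), Dcx, which encodes the microtubule protein doublecortin (0.991), and its relative Dclk1 (0.99). Syt13 stood at 24.6 CPM in E14.5 females, 32.0 in E14.5 males, 80.7 in E16.5 females and 75.7 in the E16.5 males. Those nearest to Crabp1 were Negr1, a neuronal adhesion gene (0.977), Lonrf1 (0.976) and Dpp10 (0.971), and Dpp10 stood at 4.88, 4.599, 31.2 and 3.802 CPM in the same order of groups. Those nearest to Rdh10 were Slc12a2, a sodium, potassium and chloride cotransporter gene (0.986), Rai14 (0.981) and Abcd2 (0.981). The libraries fall into 4 groups that all genes share, so these correlations of log2 CPM mostly restate the group means and carry no p.

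Adh1 was highly expressed at E16.5 with no deposited ATAC-seq peak near its start. Of 5165 genes with at least 50 CPM in the highest fetal group, a limit chosen after the values of Adh1 were seen, 99.1% had a peak within 1 kb of an annotated start. Adh1 was among the 46 (0.891%) that did not, and its nearest peak to any annotated start lay 3686 bp away. Over all 14577 tested genes with an annotated symbol, 89.1% had such a peak.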
